A study of Homo sapiens with 8 samples.

Results

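The human mitochondrial genome carries 37 genes, and all 37 were listed in the deposited expression tables, where they were recognized by gene names starting with MT-. They are 13 protein genes, 2 rRNA genes, and 22 tRNA genes, of 57756 genes in all, and no other gene of the tables lies on the mitochondrial chromosome. The genes were measured in 4 cancer cell lines, in RNA pulled down with an antibody to ribosomal protein S6 (RPS6) by RNA immunoprecipitation (RIP) and in the matching input, which is RNA of the same lysate without immunoprecipitation. The lines were Hep3B (hepatocellular carcinoma), HCT116 (colorectal cancer), DU145 (prostate cancer), and SW1990 (pancreatic cancer), none was given a treatment in the labels, and each had 1 RIP and 1 input library, so the 8 libraries form 4 pairs. The study used the pull-down to list RNAs that interact with RPS6. There was no pull-down with a control antibody among the libraries, and a line is an established culture whose pair was made once. The titles of the liver cancer pair point to Hep3B, as does the paper, while the cell line field of its labels reads Huh7. The pair is called Hep3B here.

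Mitochondrial DNA is copied into long RNAs that run over most of the circle from each of its strands, and tRNAs punctuate the genes and are cut out to release the mRNAs and rRNAs. The mRNAs encode core subunits of respiratory chain complexes I, III, and IV and of the ATP synthase (complex V). They are translated inside the organelle by mitochondrial ribosomes, which are built from the mitochondrial rRNAs and from their own set of proteins. RPS6 belongs to the small subunit of the cytosolic ribosome and is not a part of the mitochondrial ribosome.

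Libraries held between 34630338 and 54209625 fragments assigned to genes. Fragments were recovered from the estimated counts that the authors deposited, which carry a scaling factor of each library. After division by the factor, between 92.5% and 93.9% of the values of a library from above 0 to 1000 fragments lay within 0.01 of a whole number. Liver markers set the Hep3B pair apart. All 10 liver markers, albumin among them, reached 1 FPKM (fragments per kilobase of gene length and per 1000000 mapped fragments) in both Hep3B libraries. In HCT116 libraries 2 of 6 intestinal markers reached 1 FPKM, while 4 of 6 did in SW1990 libraries. In SW1990 libraries between 2 and 4 of 6 pancreatic duct markers did, beside 3 of 6 in HCT116 and DU145 libraries. Neither list set its own line apart. In DU145 libraries the prostate marker KLK3 was listed at 0. Summed over 6 blood cell markers, the level was at most 10.3 FPKM in any library.

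RNA of the mitochondrial genome took a much smaller part of every RIP library than of its input. In Hep3B cells, MT- genes took 2.27% of the input and 0.255% of the RIP library. In HCT116 cells they took 0.471% and 0.0183%. In DU145 cells they took 5.001% and 0.325%. In SW1990 cells they took 2.98% and 0.0745%. The highest RIP share, that of DU145 cells, was below the lowest input share, that of HCT116 cells, so the groups did not overlap. The share was 8.91-fold lower in Hep3B cells, 25.7-fold lower in HCT116 cells, 15.4-fold lower in DU145 cells, and 39.9-fold lower in SW1990 cells. The mean log2 ratio of RIP to input was -4.28 ± 0.93 (SD, n = 4 cell lines). A two-sided exact sign-flip permutation test over the cell lines gave p = 0.125, which is the smallest p that 4 pairs allow.

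**Figure D1:**
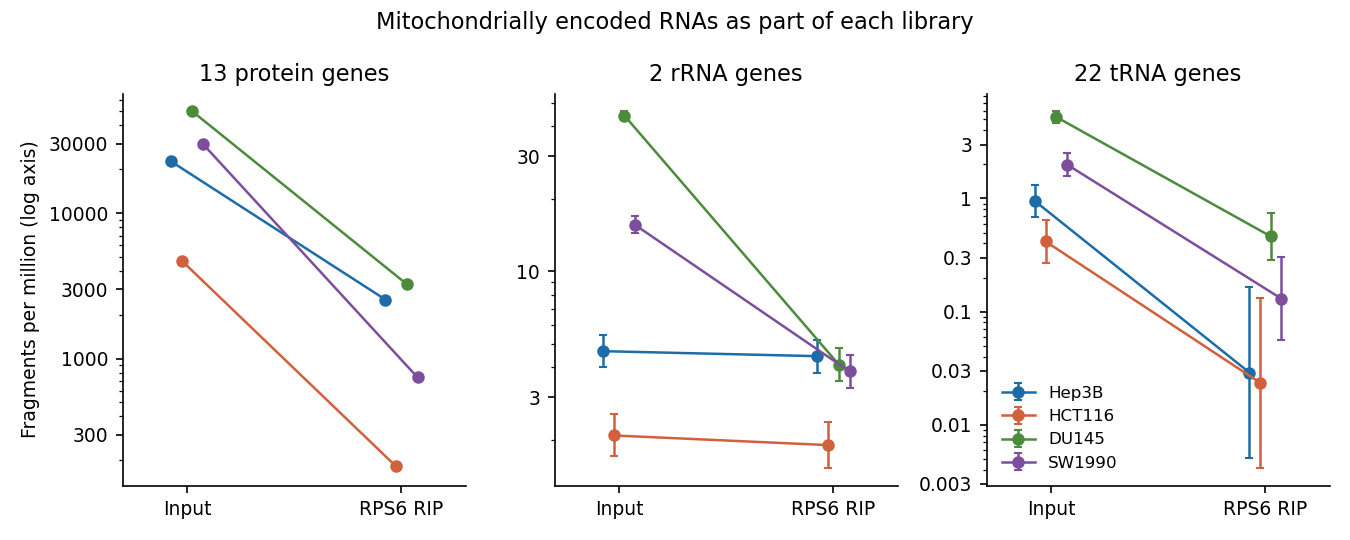
Fragments per 1000000 fragments of a library (FPM, log axes) on the 13 mitochondrial protein genes, the 2 rRNA genes, and the 22 tRNA genes, in the input and the RPS6 RIP library of each cell line. Lines join the libraries of a pair, and bars are 95% Wilson intervals, which cover counting error only and are smaller than the points for protein genes. Protein genes and tRNAs were lower in all 4 RIP libraries, while the rRNAs of Hep3B and HCT116 cells lay within each other's intervals.

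Shares of a library are relative, and a smaller part taken by MT- genes cannot be told apart from a larger part taken by other RNAs. In bulk RNA, fewer cells of a kind and less RNA per cell cannot be told apart either. The inputs already differed widely, with a 10.6-fold range from HCT116 to DU145 cells, and the RIP libraries had a 17.7-fold range between the same lines. HCT116 cells had the lowest share in both kinds of library and DU145 cells the highest. Most of the RNAs examined that stay in the nucleus or form small cytosolic particles fell too, in a comparison where 24.9% of all genes tested fell and 26.5% rose. Of 6 nuclear-retained RNAs, 5 fell in the test across genes (edgeR, described with the genes), from NEAT1, with a log2 fold change of -2.93, to RPPH1, with -5.78, and MALAT1, RMRP, and RN7SK lay between them. In SW1990 cells RMRP was higher in the RIP, at 192 FPM against 161 in the input. The sixth, KCNQ1OT1, did not pass, with a log2 fold change of -0.09. The summed share of the 6 RNAs was between 0.516% and 9.32% of inputs and between 0.0557% and 0.214% of RIP libraries. The signal recognition particle RNAs RN7SL1 and RN7SL2 fell with log2 fold changes of -6.36 and -6.49, and took between 0.133% and 3.82% of inputs and between 0.00376% and 0.0225% of RIP libraries. Of 79 mRNAs of cytosolic ribosomal proteins tested, 59 fell and 1 rose, with a median log2 fold change of -1.95. The part of these RNAs in the share of MT- genes was not tested.

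Nearly all mitochondrial RNA in both kinds of library was mRNA. Protein genes took 811322 of 811523 MT- fragments of the Hep3B input and 7722 of 7804 of the HCT116 RIP library, which had the fewest. In the inputs, levels per length spread from MT-CO1, which encodes the catalytic subunit of complex IV (cytochrome c oxidase), down to MT-ND5 of complex I. MT-CO1 had a median of 7138 FPKM over the 4 inputs, with a range from 1659 to 21186. MT-ND5 had a median of 572 FPKM, with a range from 64.0 to 1252. Between them, from high to low by the median of the inputs, lay MT-ATP8, MT-CO3, MT-ND4L, MT-ATP6, MT-ND4, MT-CYB, MT-CO2, MT-ND1, MT-ND6, MT-ND2, and MT-ND3. The ranges of every pair of neighbours in this order overlapped. Within the lines, MT-ND4L exceeded MT-ATP6, its neighbour in this order, in 4 of 4 inputs, while MT-ATP8 exceeded MT-CO3 in 1 of 4. MT-CO1 ranked highest in the inputs of Hep3B, HCT116, and DU145 cells, and MT-ATP8 ranked above it in SW1990 cells. In the RIP libraries MT-CO1 ranked highest in 4 of 4. As a description over the 13 genes of the same libraries, Spearman's rho between any pair of inputs lay between 0.68 and 0.88, and between any pair of RIP libraries between 0.77 and 0.92. FPKM of short genes rests on the effective length that the authors' software assigned, and by fragments MT-ATP8 made up at most 0.615% of the mitochondrial mRNA of an input.

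**Figure D2:**
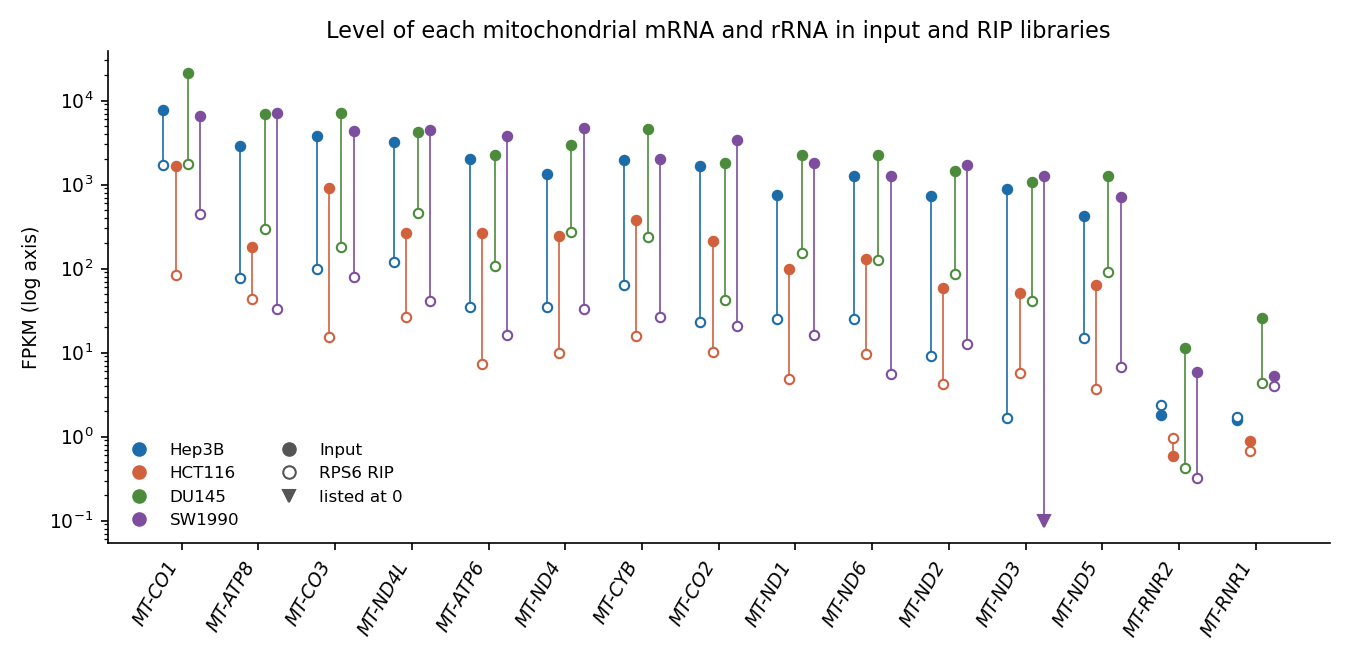
FPKM (log axis) of the 13 mitochondrial mRNAs and the 2 rRNAs in each library, with genes ordered by the median of the 4 inputs, mRNAs before rRNAs. Filled points are inputs, open points RIP libraries, lines join a pair, and the triangle marks MT-ND3 in the SW1990 RIP library, which was listed at 0. MT-CO1 was the highest gene in every RIP library, and the rRNAs lay below every mRNA in each library but for MT-ND3, which was below both in the Hep3B and SW1990 RIP libraries.

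Across all genes, edgeR's quasi-likelihood test was run on rounded estimated counts, pairing the libraries by cell line, with Benjamini-Hochberg adjustment over 19921 genes. Of all genes tested, 24.9% were called lower in the RIP and 26.5% higher at an adjusted p under 0.05, and the median log2 fold change was -0.05. Of the 37 MT- genes, 15 had enough counts to be tested. All 13 protein genes were lower in the RIP, with log2 fold changes from -3.29 for MT-CO1 to -6.44 for MT-ND3 and a median of -5.05. Neither rRNA passed the test. No MT- gene was higher, also at an unadjusted p under 0.05 (0 genes), and DESeq2 and limma called 0 higher. Each protein gene was lower in the RIP in 4 of 4 cell lines, which held for 37.2% of all genes tested. For 8 of the 13, all RIP libraries lay below all inputs, which held for 16.4% of all genes tested. The other 5, MT-ND1, MT-ND2, MT-ATP8, MT-ND4L, and MT-ND5, overlapped because the DU145 RIP library was above the HCT116 input. Scaling by library totals in place of TMM factors moved the median of all genes from -0.05 to -0.40 on the log2 scale and the calls from 5282 higher and 4960 lower to 3888 higher and 6384 lower, and the count of MT- genes called lower was 13 under each.

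**Figure D3:**
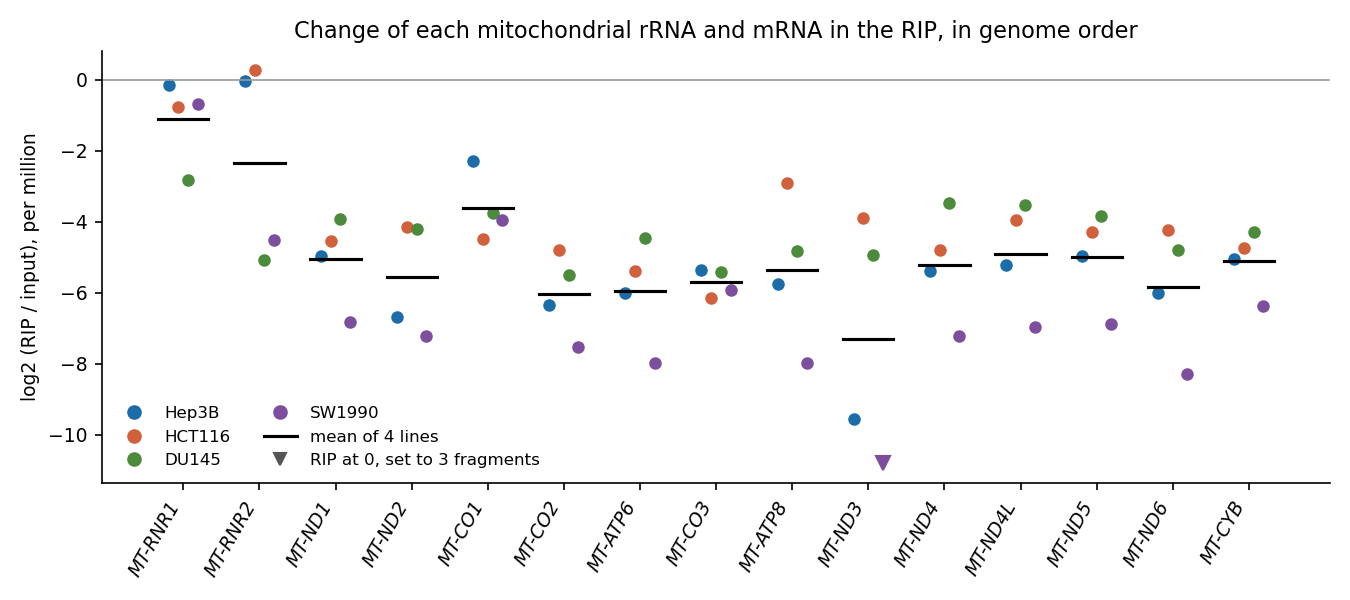
Log2 ratio of RIP to input in FPM for the 2 rRNAs and 13 mRNAs, in the order of the mitochondrial genome, for each cell line (points) with the mean of the 4 lines (bars). The triangle is MT-ND3 in SW1990 cells, where the RIP library had 0 fragments and was set to 3. MT-CO1 was the mRNA with the smallest mean change, -3.62, and HCT116 cells had the only ratio above 0, 0.26 for MT-RNR2.

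Complex IV holds the mRNA that changed least. MT-CO1 had 11163, 2549, 28178, and 8748 fragments per 1000000 fragments of the library (FPM) in the inputs of Hep3B, HCT116, DU145, and SW1990 cells. It had 2274, 114, 2085, and 564 in the RIP libraries of the same lines. Every RIP library lay below every input, although the Hep3B RIP library came close to the HCT116 input. The level was 4.91-fold, 22.4-fold, 13.5-fold, and 15.5-fold lower in the same order of lines, and the log2 fold change was -3.29 ± 0.38 (SE, n = 4 pairs, edgeR adjusted p = 6.02e-05). The position of MT-CO1 in the deposited tables is chrM:5904-7445 (1-based).

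The other complex IV subunits, MT-CO2, which takes up electrons from cytochrome c, and MT-CO3, fell further. MT-CO3 had 2461, 672, 4628, and 3041 FPM in the inputs and 59.2, 9.53, 109, and 49.9 in the RIP libraries. All RIP values lay below all inputs. Its ratios were the most alike between lines, between 41.6-fold and 70.5-fold lower, and the log2 ratios averaged -5.71 ± 0.38 (SD, n = 4 cell lines). Its log2 fold change was -5.36 ± 0.28 (SE, edgeR adjusted p = 1.23e-05). MT-CO2 had between 128 and 1927 FPM in inputs and between 4.62 and 21.3 in RIP libraries. It was between 27.7-fold (HCT116) and 185-fold (SW1990) lower, with a log2 fold change of -5.70 ± 0.48 (SE, edgeR adjusted p = 1.38e-05).

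Complex I has the largest group of mitochondrial mRNAs, and all 7 subunits of it fell. MT-ND3 had 87.7, 6.01, 119, and 140 FPM in the inputs of Hep3B, HCT116, DU145, and SW1990 cells. In the RIP libraries it had 0.116, 0.399, 3.83, and 0. These levels rest on 4 fragments in the Hep3B RIP library, 17 in HCT116 cells, 141 in DU145 cells, and 0 of 38498775 in SW1990 cells, which allows a level of up to 0.0779 FPM. The groups did not overlap. MT-ND3 was 760-fold lower in Hep3B cells, 15.1-fold in HCT116 cells, 31.0-fold in DU145 cells, and at least 1797-fold in SW1990 cells against a floor of 3 fragments per library. The log2 fold change was -6.44 ± 1.10 (SE, edgeR adjusted p = 0.000671), the largest change and the largest error of the 13 genes.

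MT-ND4 was the most abundant complex I mRNA in fragments, with 1807, 364, 3561, and 6168 FPM in the inputs and 42.9, 12.98, 320, and 41.6 in the RIP libraries. The highest RIP value, in DU145 cells, was just below the lowest input, in HCT116 cells. MT-ND4 was 11.1-fold lower in DU145 cells and 148-fold lower in SW1990 cells, with a log2 fold change of -4.85 ± 0.58 (SE, edgeR adjusted p = 6.97e-05). MT-ND4L, whose reading frame overlaps that of MT-ND4 on a shared mRNA, was between 11.5-fold and 125-fold lower, with a log2 fold change of -4.54. The deposited tables give the pair 1 locus, chrM:10470-12137, and the ratio of their FPKM was between 0.93 and 2.45 in inputs and between 1.22 and 3.40 in RIP libraries. MT-ND1, MT-ND2, and MT-ND5, which like the other mitochondrial subunits lie in the membrane arm of complex I, had between 59.9 and 2310 FPM in inputs and between 3.36 and 160 in RIP libraries. Their log2 fold changes were -4.68 for MT-ND1, -5.22 for MT-ND2, and -4.61 for MT-ND5, with errors (SE) between 0.47 and 0.61. For each of the 3, the smallest fall was 14.4-fold or more and was seen in DU145 cells for MT-ND1 and MT-ND5 and in HCT116 cells for MT-ND2, and SW1990 cells had the largest fall.

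MT-ND6 is the only mRNA that is read from the light strand of the genome, opposite to the other 12. It had 374, 38.2, 740, and 375 FPM in the inputs and 5.78, 2.02, 26.6, and 1.19 in the RIP libraries. The groups did not overlap, and the log2 fold change was -5.39 ± 0.62 (SE, edgeR adjusted p = 5.72e-05), within the range of the 12 mRNAs of the heavy strand. Beside MT-CYB, its neighbour on the heavy strand, MT-ND6 had between 0.34 and 0.65 times the FPKM in inputs and between 0.21 and 0.60 times in RIP libraries. The labels name a stranded library kit, but the strand setting of the counting was not given in the sources used here. Fragments of MT-ND6 and of RNA antisense to it cannot be told apart on that basis.

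Complex III has a single mitochondrial subunit, cytochrome b, encoded by MT-CYB. MT-CYB had 2166, 451, 4574, and 2158 FPM in the inputs and 64.9, 16.7, 232, and 26.1 in the RIP libraries. All RIP values lay below all inputs. It was between 19.7-fold (DU145) and 82.8-fold (SW1990) lower, and the log2 fold change was -4.76 ± 0.39 (SE, edgeR adjusted p = 1.34e-05).

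Complex V has a pair of mitochondrial subunits, MT-ATP6, which forms the proton path, and the small MT-ATP8, and their reading frames overlap. MT-ATP6 had 1126, 163, 1172, and 2122 FPM in the inputs and 17.3, 3.87, 53.1, and 8.39 in the RIP libraries, with no overlap between the groups. Its log2 fold change was -5.58 ± 0.56 (SE, edgeR adjusted p = 2.71e-05). MT-ATP8 had 69.1, 5.29, 185, and 183 FPM in the inputs and 1.27, 0.704, 6.52, and 0.727 in the RIP libraries. The RIP value of DU145 cells was above the input value of HCT116 cells. MT-ATP8 was 7.51-fold lower in HCT116 cells, which was the smallest fall of any mRNA in that line and rests on 30 fragments in the RIP library, and 251-fold lower in SW1990 cells. Its log2 fold change was -5.05 ± 0.70 (SE, edgeR adjusted p = 0.000178). MT-ATP8, MT-ATP6, and MT-CO3 share 1 locus in the deposited tables, chrM:8366-9990, and the software may have split fragments between overlapping genes. The FPKM of MT-ATP8 was between 0.69 and 3.03 times that of MT-ATP6 in inputs and between 2.04 and 5.94 times in RIP libraries.

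Cell lines differed in how far the mRNAs fell and in which fell most. The median fall of the 13 mRNAs was 42.1-fold in Hep3B cells, 22.4-fold in HCT116 cells, 19.7-fold in DU145 cells, and 148-fold in SW1990 cells. The mRNA that fell most was MT-ND3 in Hep3B and SW1990 cells, MT-CO3 in HCT116 cells, and MT-CO2 in DU145 cells. The mRNA that fell least was MT-CO1 in Hep3B and SW1990 cells, MT-ATP8 in HCT116 cells, and MT-ND4 in DU145 cells. As a description over the 13 genes, Spearman's rho of the log2 ratios of any pair of lines lay between -0.38 and 0.83. With 1 pair per line, differences between lines have no replicate and were not tested.

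Within mitochondrial mRNA, MT-CO1 had a larger part in each RIP library than in its input. MT-CO1 made up 49.2%, 54.1%, 56.4%, and 29.4% of the fragments of the 13 protein genes in the inputs of Hep3B, HCT116, DU145, and SW1990 cells. In the RIP libraries it made up 89.5%, 62.7%, 64.3%, and 76.1%. All 4 RIP values lay above all inputs, and the mean share was 47.3% ± 12.3 in inputs and 73.1% ± 12.4 in RIP libraries (SD, n = 4). The exact sign-flip permutation test of the log2 ratios gave p = 0.125, the smallest p possible, and an adjusted p of 0.325 over the 13 genes, so the difference did not pass. It was large in Hep3B and SW1990 cells and small in the other lines. In Hep3B cells MT-CO1 was 4.91-fold lower while the other 12 mRNAs together were 43.1-fold lower. In SW1990 cells the values were 15.5-fold and 118-fold. In HCT116 cells they were 22.4-fold and 32.0-fold, and in DU145 cells 13.5-fold and 18.8-fold. The log2 ratio of MT-CO1 exceeded that of the other 12 by 1.76 ± 1.47 on average (SD, n = 4, exact sign-flip permutation p = 0.125), with the same sign in 4 of 4 lines.

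**Figure D4:**
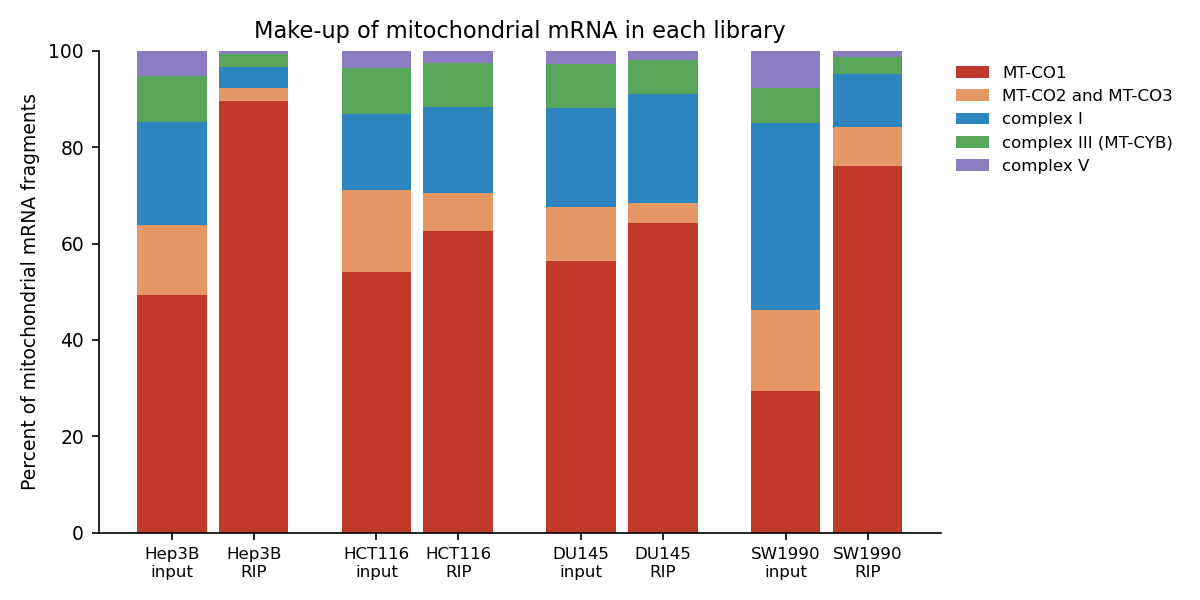
Percent of the fragments of the 13 mitochondrial protein genes that fell on MT-CO1, on the other complex IV genes, and on the genes of complexes I, III, and V, in the input and the RIP library of each cell line. Bars add up to all mitochondrial mRNA of a library. The part of MT-CO1 was larger in each RIP library than in its input, from 49.2% to 89.5% in Hep3B cells and from 29.4% to 76.1% in SW1990 cells.

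Most other members had smaller parts. MT-CO2, MT-ATP6, MT-CO3, and MT-CYB took smaller shares of mitochondrial mRNA in 4 of 4 RIP libraries. MT-CO3 had a mean of 11.2% in inputs and 4.42% in RIP libraries, MT-ATP6 4.48% and 1.397%, MT-CO2 3.74% and 1.26%, and MT-CYB 8.89% and 5.60%. The 7 complex I mRNAs together made up 21.2%, 15.8%, 20.5%, and 38.9% in inputs and 4.47%, 17.8%, 22.7%, and 11.0% in RIP libraries, lower in Hep3B and SW1990 cells and higher in HCT116 and DU145 cells. With MT-CO1 left out of the total, MT-ATP6 was lower in 4 of 4 RIP libraries and MT-ND1 higher in 4 of 4, while MT-CO3 and MT-ND2 were higher in 2 of 4. None of the 13 genes passed after adjustment, which 4 pairs do not allow.

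The nuclear genome holds copies of mitochondrial sequence, and some of these were listed with many fragments. The copy of MT-CO1 described in the tables as MT-CO1 pseudogene 12 (ENSG00000237973, listed under the symbol hsa-mir-6723, at a locus of chr1:536816-660283) was examined after its values were seen. It had 94842, 24023, 176302, and 34883 fragments in the inputs and 21328, 1043, 8473, and 3206 in the RIP libraries, which was between 10.8% and 27.1% of the fragments of MT-CO1. It was 4.30-fold, 21.5-fold, 14.1-fold, and 11.3-fold lower in the RIP of Hep3B, HCT116, DU145, and SW1990 cells, beside 4.91-fold, 22.4-fold, 13.5-fold, and 15.5-fold for MT-CO1. Of the copies with MT-like symbols, those with the most fragments were MTND2P28, MTATP6P1, and MTND1P23, which lie in the same locus and fell with log2 fold changes of -4.50, -5.38, and -4.59. Of 302 copies of protein genes listed in the tables by symbol or description, 14 had enough counts to be tested. All 14 fell, where 24.9% of all genes tested fell. The count minimum is on the average of the 8 libraries, so a copy could pass it through its inputs alone. MTND6P4 had 117, 18, 584, and 315 fragments in the inputs and 4, 0, 12, and 0 in the RIP libraries. The count of 14 is therefore not a separate result about the copies. Levels of the genes with such copies are uncertain to the extent that reads can align to both. How the authors' alignment treated such reads was not given in the sources used here. With the copies counted together with the genes, the mean log2 ratio of the summed protein genes was -4.22 in place of -4.28. With the copy on chromosome 1 added, that of MT-CO1 was -3.60 in place of -3.62, that of MT-ND2 -5.45 in place of -5.57, and that of MT-ATP6 -5.95 in place of -5.97.

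Both mitochondrial rRNAs were scarce throughout. MT-RNR1, the 12S rRNA of the small mitochondrial ribosomal subunit, had 54, 44, 1359, and 202 fragments in the inputs of Hep3B, HCT116, DU145, and SW1990 cells and 47, 24, 130, and 131 in the RIP libraries. MT-RNR2, the 16S rRNA of the large subunit, had 113, 51, 1046, and 376 in the inputs and 107, 57, 21, and 17 in the RIP libraries. In the Hep3B input, MT-RNR1 was at 1.57 FPKM and MT-CO1 at 7766 FPKM. A removal step for rRNA was not given in the sources used here. The level of an rRNA here is that of the fragments left in the libraries.

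The rRNAs differed between lines. In FPM, MT-RNR2 went from 3.16 to 3.09 in Hep3B cells, from 1.12 to 1.34 in HCT116 cells, from 19.3 to 0.571 in DU145 cells, and from 10.1 to 0.442 in SW1990 cells. The groups overlapped. The 95% Wilson intervals in HCT116 cells, from 0.851 to 1.47 in the input and from 1.03 to 1.73 in the RIP, overlapped too, so no difference was detectable at this depth in that line. MT-RNR1 went from 1.51 to 1.36, from 0.966 to 0.563, from 25.1 to 3.53, and from 5.45 to 3.40 in the same order of lines, and its groups overlapped. In the test across genes, MT-RNR1 had a log2 fold change of -0.76 ± 0.47 (SE, edgeR adjusted p = 0.197) and MT-RNR2 of -1.95 ± 1.03 (SE, edgeR adjusted p = 0.140). Without the Hep3B pair the value of MT-RNR2 was -3.06 (edgeR adjusted p = 0.0429) and without the HCT116 pair -3.05 (edgeR adjusted p = 0.0306), both past the threshold. Without the DU145 pair it was -0.83 and without the SW1990 pair -0.95. MT-RNR1 changed as well, to -0.19 without the DU145 pair and -1.16 without the Hep3B pair. On FPKM, both rRNAs were slightly above the input in the Hep3B RIP library, at 1.72 against 1.57 for MT-RNR1 and 2.39 against 1.79 for MT-RNR2.

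Set beside the summed mRNAs, the summed rRNAs had the higher ratio in each line, which did not hold for each rRNA. In DU145 cells MT-RNR2 alone had a log2 ratio of -5.08 and MT-RNR1 of -2.83, beside -3.95 for the summed mRNAs. The log2 ratio of the summed rRNAs was -0.07 in Hep3B cells, -0.13 in HCT116 cells, -3.43 in DU145 cells, and -2.02 in SW1990 cells. The mean was -1.41 ± 1.62 (SD, n = 4), and it was -0.74 without the DU145 pair and -1.86 without the Hep3B pair. It exceeded the log2 ratio of the summed mRNAs by 3.09, 4.57, 0.51, and 3.31, on average by 2.87 ± 1.70 (SD, n = 4, exact sign-flip permutation p = 0.125, the smallest possible). The rRNA level in FPM was between 2.08 and 44.4 in inputs but between 1.90 and 4.45 in RIP libraries, where the lines with the most rRNA in the input no longer stood apart.

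The 22 tRNA genes were close to the limit of the libraries. The 4 inputs held 34, 19, 285, and 74 tRNA fragments, 412 in all, and the RIP libraries 1, 1, 17, and 5, 24 in all. In FPM, inputs were at 0.950 in Hep3B cells, 0.417 in HCT116 cells, 5.26 in DU145 cells, and 1.996 in SW1990 cells, in the same order of lines as the mRNA shares. RIP libraries were at 0.0289 (95% Wilson interval 0.00510 to 0.164), 0.0235 (0.00414 to 0.133), 0.462 (0.289 to 0.740), and 0.130 (0.0555 to 0.304). No RIP value of a line reached its input value. In DU145 cells the level was 11.4-fold lower and in SW1990 cells 15.4-fold lower, and the mean log2 ratio of the 4 lines was -4.16 ± 0.64 (SD, n = 4, exact sign-flip permutation p = 0.125). The ratios of Hep3B and HCT116 cells in this mean rest on 1 RIP fragment each, and as a share of summed FPKM the mean was -2.94.

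No tRNA gene was above 0 in all 8 libraries, and none had enough counts for the test. MT-TF and MT-TV, the tRNAs for phenylalanine and valine that flank MT-RNR1, were at 0 in all 8. The tRNA with the most fragments in inputs was MT-TI (isoleucine), with 6, 1, 47, and 10 in the inputs and 0, 0, 1, and 0 in the RIP libraries. It was followed by MT-TR (arginine), with 51 fragments over the inputs and 1 over the RIP libraries, and MT-TH (histidine), with 39 and 2. These 3 were chosen after their values were seen. Over all tRNA genes, the 4 inputs together held more fragments than the RIP libraries for 19, 9 of the 22 were at 0 in every RIP library, and no gene had over 4 fragments in any RIP library. Without the minimum on counts, 20 tRNA genes could be tested with edgeR and 1 of them, MT-TI, was called lower. The errors of that fit are described with the alternatives. The tRNA genes of the light strand had 115 fragments over the inputs and those of the heavy strand 297, of which the DU145 input gave 73 and 212. The light strand carries 9 of the 37 MT- genes, MT-ND6 among them, so the totals cover unlike numbers of tRNA genes. FPKM values of tRNAs were used only in shares of summed FPKM and in the limma alternatives. In the Hep3B input, 1 fragment on MT-TL1 was worth 29.5 FPKM and 1 on MT-CO1 was worth 0.0194 FPKM.

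Nuclear mRNAs for proteins that work with the mitochondrial RNAs moved less, and in both directions. Of 76 entries for nuclear-encoded subunits of complexes I, III, IV, and V, all tested, 53 fell and 9 rose. Of all genes tested, 24.9% fell and 26.5% rose. The median log2 fold change of the 76 was -1.25, beside -0.05 for all genes tested and -5.05 for the 13 mitochondrial mRNAs. The lowest of the 76 was -3.82, above all mitochondrial mRNAs but MT-CO1. Of 58 entries for proteins of mitochondrial transcription, RNA processing, and translation, 24 fell and 15 rose, with a median of -0.28, and the share that rose was near the 26.5% of all genes tested. A few symbols stand for more than 1 entry of the tables, and each entry was counted.

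**Figure D5:**
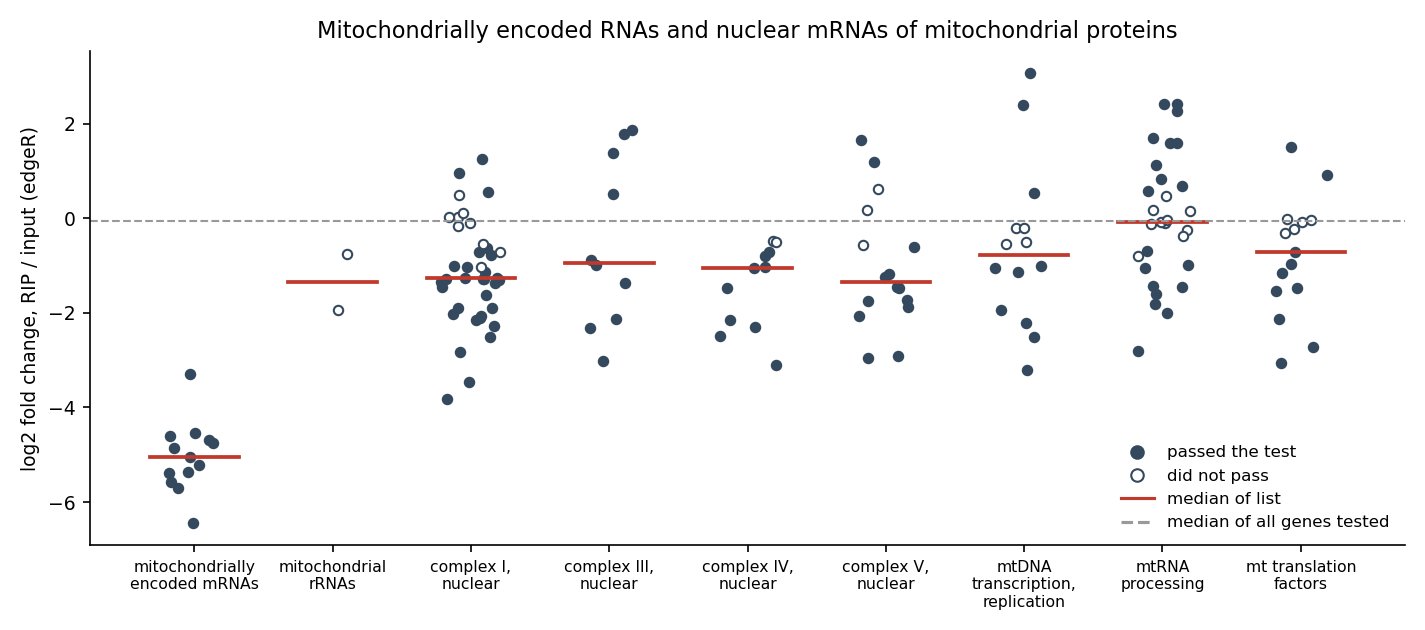
Log2 fold change of RIP against input (edgeR) of each tested gene, for mitochondrially encoded mRNAs and rRNAs, nuclear-encoded subunits of complexes I, III, IV, and V, and nuclear-encoded proteins of mitochondrial DNA transcription and replication, RNA processing, and translation. Filled points passed an adjusted p under 0.05, red bars are medians of the lists, and the dashed line is the median of all genes tested, -0.05. The mitochondrial mRNAs had a median of -5.05, and no nuclear list had a median under -1.34.

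The counts of each complex stand beside 24.9% of all genes tested that fell and 26.5% that rose. In complex I, 27 of 39 entries fell and 3 rose. NDUFV1 rose with a log2 fold change of 1.25, and NDUFB1 and NDUFA5 fell with -3.82 and -3.47. In complex III, 6 of 10 fell and 4 rose. UQCRC1 and CYC1, cytochrome c1, rose with 1.87 and 1.79, while UQCRB and UQCRH fell with -3.01 and -2.31. In complex IV, the partners of MT-CO1, MT-CO2, and MT-CO3 fell in 9 of 11 cases. None of the 11 rose with edgeR, where the highest log2 fold change was -0.48 and 0 were higher at an unadjusted p under 0.05, or with DESeq2 (0 of 11). COX6C and NDUFA4 had the lowest values, -3.10 and -2.48. In complex V, 11 of 16 fell and 2 rose. ATP5B and ATP5A1 rose with 1.65 and 1.19, and ATP5E and ATP5I fell with -2.96 and -2.92. The genes named had the largest changes of their lists, and whether the role of a subunit goes with its direction was not tested.

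Among the proteins that copy and transcribe mitochondrial DNA, 7 of 14 fell and 3 rose, where 24.9% of all genes tested fell and 26.5% rose. POLRMT, the mitochondrial RNA polymerase, rose most, from between 24.8 and 27.5 FPKM in inputs to between 92.1 and 306 in RIP libraries, with a log2 fold change of 3.07 ± 0.20 (SE, edgeR adjusted p = 1.23e-05). The groups did not overlap. POLG, the catalytic subunit of the mitochondrial DNA polymerase, rose with 2.40, and SSBP1, the mitochondrial single-stranded DNA binding protein, and MTERFD3, of the mitochondrial termination factor family, fell with -2.51 and -3.22. Among proteins of mitochondrial RNA processing, 10 of 29 rose and 9 fell, shares not far from the 26.5% and 24.9% of all genes tested. ELAC2, which trims the 3′ ends of tRNA precursors, and TBRG4, a regulator of mitochondrial mRNA, rose with 2.42 and 2.41. SLIRP, which binds mitochondrial mRNA together with LRPPRC, and TRMT10C, a subunit of mitochondrial RNase P, fell with -2.80 and -1.99. Among translation factors, 8 of 15 fell and 2 rose, against the same shares of all genes. TUFM, the mitochondrial elongation factor Tu, and OXA1L, which inserts new proteins into the inner membrane, rose with 1.51 and 0.92, and MTIF3, an initiation factor, and MTRF1L, a release factor, fell with -3.06 and -2.72. Each of the genes named in these lists moved the same way in 4 of 4 cell lines, with edgeR adjusted p between 1.23e-05 and 0.00230.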

How the data were processed

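RNA of the RPS6 pull-down and of the input was sequenced in 4 cell lines, with 1 library of each kind per line. The authors aligned reads to hg19 with TopHat (TopHat2 2.0.9 and CASAVA 1.8 in the submitters' processing notes). The quantifier, its annotation, its strand setting, and the mitochondrial reference were not given in the sources used here. The authors deposited, per gene and library, an FPKM value, normalized for length and depth, and an estimated count, which carries a scaling factor of each library. Start positions in the files count from 0 and are given here counted from 1. A table per cell line with the authors' fold change, p-value, and q-value was not used. All 16 value columns of the libraries were matched to samples, and 0 were left unmatched.

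Estimated counts, not the raw counts the design had assumed, were rounded and tested with edgeR 4.0.16 (R 4.3.3), using the quasi-likelihood test with TMM factors and the cell line as a block. Genes needed an average of 10 counts or more in the 8 libraries, p was adjusted by Benjamini-Hochberg, and 0.05 was the threshold. The SE beside an edgeR log2 fold change was worked back from the test, as the size of the change divided by the square root of the F statistic. Each count divided by its library's factor gave fragments, used for shares, ratios, levels per 1000000 fragments (FPM), 95% Wilson intervals, and a floor (3 fragments). Reads without molecular identifiers do not count molecules, so intervals and floors cover counting error only. RIP and input of a line come from 1 lysate and form a pair. Deviations from the group mean, over 19921 genes, had r between 0.839 and 0.886 for RIP and input of 1 line and at most -0.045 for different lines. Deviations of a gene sum to 0 over the 4 lines of a group, which pulls the values for different lines below 0. The r of a pair goes with a shared cell line and does not show a shared lysate. Values over the 4 lines were tested with exact two-sided sign-flip permutation tests. Every p measures the spread between cell lines, since no pair was repeated within a line. The edgeR fit without a count minimum reflects this spread less for a single gene.

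Named genes were all mitochondrial mRNAs and rRNAs, the 3 highest and 3 lowest tRNAs above 0 in every library (none met this) and any called, the 2 genes with the largest change in each direction of each nuclear list, and the 3 nuclear copies with the most counts. Some genes of the marker and nuclear lists are not reported here. Members and lists were chosen with earlier results of these data known. Alternatives were DESeq2 1.42.0, limma 3.58.1 for genes with a mean of at least 1 FPKM (pseudocounts 1 and 0.1 before log2), other scalings, minimums of 0 or 50 counts, other denominators, and leaving out each line. Counting nuclear copies with the genes and leaving MT-CO1 out of the total were added after seeing the data. Other steps ran in Python 3.11.15 (SciPy 1.17.1, NumPy 2.4.6, pandas 2.3.3, matplotlib 3.10.9), and both tests were tested on simulated data.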

Additional observations from a re-analysis of the deposited data

Results flagged for a closer look

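Over 82 sets of 4 values, 8 held a value that stood apart from the other 3 by Dixon's criterion, where chance gives about 1 in 20, or 4.1. In 7 of them the value was that of the DU145 RIP library, which was far above the other RIP libraries for MT-ND1 (152 FPKM), MT-ND2 (87.1 FPKM), MT-ATP8 (297 FPKM), MT-ND3 (41.7 FPKM), MT-ND4 (269 FPKM), MT-ND5 (92.2 FPKM), and MT-ND6 (127 FPKM). DU145 cells also had the largest share of mitochondrial RNA in the input, and these 7 values come from 1 library. The eighth was the part of MT-ND4 in mitochondrial mRNA of the SW1990 input, 20.7%, against between 7.13% and 7.97% in the other inputs.

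The log2 ratio of MT-RNR2 had opposite signs between lines, with 0.26 in HCT116 cells and -0.031 in Hep3B, -5.08 in DU145, and -4.52 in SW1990 cells. This difference was not tested.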

How the results depend on the processing

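Under 14 alternatives, MT- genes called lower numbered between 9 and 24, and genes called higher 0. The call of 13 was 24 with limma on log2(FPKM + 1) and 24 on log2(FPKM + 0.1), where 35 MT- genes were tested and 11 tRNA genes were called besides the 13 mRNAs. These tRNA calls rest on few fragments, each worth many FPKM. MT-TQ, which is among them, had 1, 0, 3, and 4 fragments in the inputs and 0 in each RIP library. Without the cell line block, 9 of 13 mRNAs and 2771 genes in place of 10242 passed, and MT-CO1 (edgeR adjusted p = 0.0994), MT-ND3 (0.0597), MT-ND5 (0.0536), and MT-ND1 (0.0520) did not. In the other alternatives all 13 mRNAs passed, and leaving out a cell line gave between 13 and 14, the additional gene being MT-RNR2. With no minimum on counts 15 passed, MT-RNR2 (log2 fold change -1.99, edgeR adjusted p = 0.00052) and MT-TI besides the mRNAs. In that setting the SE went from 1.03 to 0.51 for MT-RNR2 and from 1.10 to 0.33 for MT-ND3. The SE of the 13 mRNAs lay between 0.27 and 0.33 there. Its p-values therefore reflect the spread of a single gene between lines less than those of the main fit. The mean log2 ratio of the MT- share lay between -4.65 and -3.93 with a line left out, and that of rRNAs was -0.28 as a share of summed FPKM, where it was -1.41 as a share of fragments. With MT-CO1 left out of the total, the RIP minus input differences in share of mitochondrial mRNA turned from negative to positive for MT-ND1 (1.70 percentage points), MT-ND4 (2.04), MT-ND4L (0.56), MT-ND5 (2.59), and MT-CYB (3.18), while those of MT-ND2, MT-ND3, MT-ND6, MT-CO2, MT-CO3, MT-ATP6, and MT-ATP8 stayed negative. Depth limits the tRNAs, the rRNAs of Hep3B and HCT116 cells, and MT-ND3 in RIP libraries.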
